A study of Mus musculus with 16 samples.

Results

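The 10 genes described here are Notch pathway components: the ligand genes Jag1, Jag2 and Dll1, the receptor genes Notch1, Notch2 and Notch3, the DNA-binding factor gene Rbpj, and the targets Hes1, Hey1 and Nrarp. They were taken by name, and all 10 were found among the 23306 genes of the table and passed the filter on low values. RNA sequencing was run on 16 libraries of mouse endometrial epithelial organoids, cultures grown from the lining cells of the uterus. Control organoids carried floxed Tgfbr2 (labelled Tgfbr2 FF) without a Cre, and conditional knockout (cKO) organoids were labelled Tgfbr2 PRcre+. That Cre is driven by the progesterone receptor promoter and was present in the cKO groups alone, so loss of Tgfbr2 and presence of Cre cannot be told apart. After 2 days in culture, organoids received vehicle for 6 days, or 10 nM of the estrogen E2 (estradiol) for 2 days and then, for 4 days, 10 nM E2 together with the synthetic progestin MPA (medroxyprogesterone acetate) at 1 µM. Each genotype and treatment had 4 libraries: M1 to M4 were control with vehicle, M5 to M8 cKO with vehicle, M9 to M12 control with E2/MPA, and M13 to M16 cKO with E2/MPA. The age of the animals was not used here.

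Notch signalling passes between touching cells. A Jagged or Delta ligand on one cell binds a Notch receptor on its neighbour, the receptor is cut by an ADAM protease and then by gamma-secretase, and its intracellular domain moves to the nucleus. There it joins RBPJ and a Mastermind coactivator and switches on genes of the HES and HEY repressor family and the feedback inhibitor Nrarp. Fringe enzymes add sugars to the receptor and change how strongly it answers each kind of ligand. In the uterus the pathway has been studied in epithelial differentiation and in the stromal changes of early pregnancy. RNA levels of these genes do not measure signalling itself.

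Values are normalized read counts, the deposited reads per gene divided by a size factor per library, and the reads behind them numbered 14372111 to 20016836 per library. Differences are log2 fold changes of value + 1, with a standard error (SE) and a p-value from limma adjusted over all 16509 genes tested, and a change is called at an adjusted p under 0.05. Adding 1 makes the changes of low genes look smaller. Whether the 4 libraries of a group stem from different animals is not in the labels, so the tests weigh differences only against the spread among these libraries, which may be technical. Epithelial markers, all 10 in the table and led by Krt7 and Krt8, summed to 130198 to 205746 in every library. Stromal fibroblast markers (10 of 10 in the table, led by Col1a1 and Col1a2) summed to 787 to 3827 in 10 libraries. They were higher in M1 (10676), M4 (48260), M8 (18995), M9 (17630), M12 (40199) and M16 (33837). Smooth muscle and pericyte markers (10 of 10, led by Des and Acta2) ranged from 72.0 to 3140 and were highest in M4 and M12. Immune markers (9 of 10, led by Lyz2 and Cd68) reached 15353 in M4 and 20601 in M12. Endothelial markers (7 of 10, led by Egfl7 and Kdr; Emcn, Cldn5 and Tie1 not in the table) summed to at most 657. Multiciliated markers (8 of 10, led by Cfap52 and Ccdc39; Mcidas and Tekt1 not in the table) summed to at most 189. Tgfbr2 itself was read in all groups, at means of 6014 and 5356 in control and 4325 and 4326 in cKO (vehicle and E2/MPA). The labels do not give the exons removed, so this total does not check the genotype. Within each group Tgfbr2 was highest in the library richest in stromal markers (M4, M8, M12 and M16). The part of stromal RNA in its values was not tested. In bulk organoids, fewer cells of a type and less RNA per cell cannot be told apart.

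Under the hormones Jag1 fell in both genotypes, the one member called in both. Hes1 fell in control organoids. The other 8 members passed the test in neither genotype, and no member passed for genotype or for the interaction of genotype and hormone. In control, 2 of 10 members were called, both lower, where 8.90% of all genes tested were called and 3.51% were called lower. In cKO, 1 of 10 was called, lower, where 4.19% of all genes were called and 1.48% were called lower. The median log2 fold change of the 10 members was -0.17 in control and -0.08 in cKO, against -0.00077 and -0.0039 over all genes tested. No member was called higher, where 5.39% of all genes were in control and 2.71% in cKO. At an unadjusted p under 0.05 there were 3 of 10 members in control (23.9% of all genes) and 3 of 10 in cKO (18.6%). Members whose E2/MPA libraries all lay below their vehicle libraries numbered 2 in control (Jag1 and Hes1; 5.49% of all genes) and 3 in cKO (Jag1, Notch2 and Hes1; 5.80%). Those with all E2/MPA libraries above numbered 0, against 6.66% of all genes in control and 8.01% in cKO. With so few members, these counts are a description of the 10 genes and not a test of the group.

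**Figure D1:**
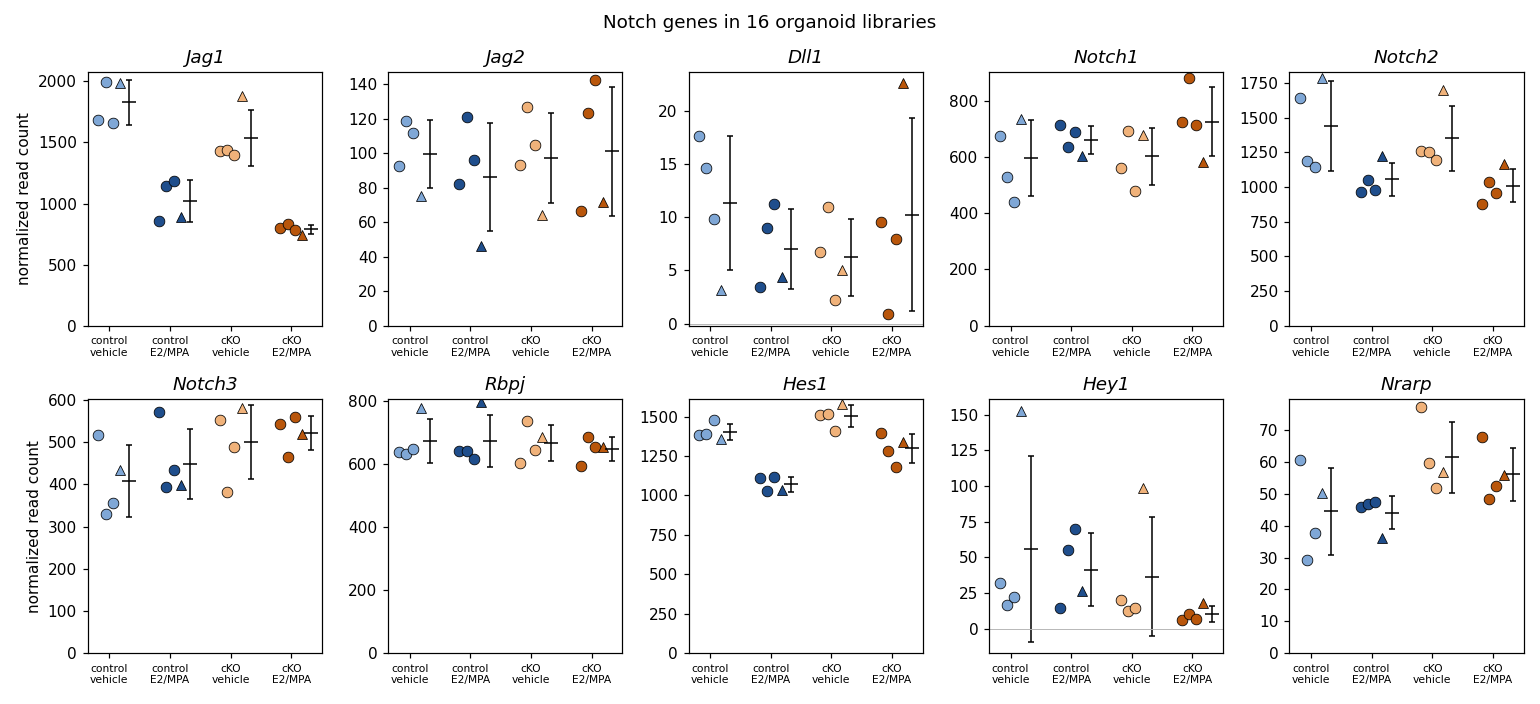
Normalized read count (y axis) of each Notch gene in the 16 libraries, by genotype and treatment; triangles mark M4, M8, M12 and M16, and each black bar is the group mean ± SD (n = 4). Jag1 under E2/MPA lies below Jag1 under vehicle in both genotypes, and Hey1 is high in M4 and M8.

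Per kilobase of annotated exon, Hes1 was the most abundant member, at 688 ± 25.6 (SD, n = 4) normalized reads per kilobase in control with vehicle. Jag1 followed at 314 ± 31.6 and Notch2 at 134 ± 29.9. These 3 kept this order without overlap between their libraries in all 4 groups. Rbpj (52.9 ± 5.42), Notch3 (50.6 ± 10.5) and Notch1 (41.8 ± 9.48) came next and overlapped. Nrarp (17.2 ± 5.34), Hey1 (17.2 ± 19.8) and Jag2 (14.3 ± 2.82) overlapped as well, and Dll1 was lowest at 2.68 ± 1.49. In cKO with E2/MPA, Hey1 (3.19 ± 1.72 per kilobase) stood below Jag2 (14.5 ± 5.40) with no overlap. In every other group, cKO with vehicle included, these genes overlapped. Hes1 (637 ± 45.5) stood further above Jag1 (136 ± 6.33) there than in control with vehicle.

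Among the ligands, Jag1 encodes Jagged1, a membrane ligand of Notch receptors. Its normalized counts in control with vehicle were 1683, 1995, 1658 and 1982 (M1 to M4), and with E2/MPA 855, 1146, 1184 and 887 (M9 to M12). Every E2/MPA library lay below every vehicle library. The mean of the E2/MPA group was 44.3% lower, with a log2 fold change of -0.85 (SE 0.12, limma adjusted p = 5.7e-04). In cKO, Jag1 stood at 1432, 1441, 1396 and 1879 with vehicle (M5 to M8) and at 802, 831, 785 and 743 with E2/MPA (M13 to M16). Again no library of one treatment reached the other, and the mean was 48.6% lower with a log2 fold change of -0.95 (SE 0.12, limma adjusted p = 4.3e-04). The fall of Jag1 was called under all 31 alternative settings in each genotype. The difference between the genotypes in this response was -0.09 on the log2 scale (SE 0.17, 95% interval -0.46 to 0.27, interaction adjusted p = 1.00).

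Jag1 was also lower in cKO than in control, without passing the test. Under vehicle the difference was -0.26 (SE 0.12, adjusted p = 0.833), and the libraries overlapped through M8. Under E2/MPA the difference was -0.35 (SE 0.12, adjusted p = 0.305), and all 4 cKO libraries lay below all 4 control libraries, as for 2.35% of all genes tested. With the 6 libraries of high stromal marker level left out, a setting chosen after seeing the data, both differences passed, at -0.35 (adjusted p = 0.0405) and -0.53 (adjusted p = 0.00367). The fall under hormone was then -0.64 in control and -0.82 in cKO. Under that setting 2 libraries remained per control group and 3 per cKO group, and limma called 593 of 16509 genes for genotype under vehicle and 1394 under E2/MPA, against 0 and 1 with all libraries. Array weights, a planned setting with all libraries, also called the Jag1 difference under E2/MPA, where it called 597 genes in all.

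The genes whose log2 level followed Jag1 most closely over the 16 libraries, of 11904 compared, were Btn1a1 (Pearson r 0.923), a butyrophilin gene, Zfp146 (0.922), a zinc finger gene, and Tfdp2 (0.897), a dimerization partner of E2F factors. Btn1a1 means went from 493 to 290.0 in control and from 435 to 292 in cKO. These r values are descriptions over libraries that share the same treatment groups, so a fall under the hormones could by itself raise r.

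The Jag1 promoter is shown because the transcript changed in both genotypes. The stretch lies upstream of every annotated Jag1 exon at chr2:137116645-137116770 (minus strand, RefSeq promoter table, GRCm38.p6; a build older than the one the reads were aligned to), 5′ to 3′, and holds no searched motif, so it has no capitals:
Jag1: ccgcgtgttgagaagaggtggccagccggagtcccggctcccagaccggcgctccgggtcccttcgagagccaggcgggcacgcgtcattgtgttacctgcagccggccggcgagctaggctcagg
The GC content of this stretch was 70.6%, against 57.2% for the full window of 250 bases. The full window of 250 bases before the RefSeq start was searched on both strands for the RBPJ core TGGGAA, its longer form GTGGGAA, which contains the core, the progesterone and glucocorticoid receptor element AGAACA and the estrogen receptor element AGGTCA. None of the 4 was present. Of 32851 mouse promoter windows of that length, 21.6%, 5.42%, 16.1% and 14.0% held them, in that order. These last 2, the hormone receptor elements, were added after the response was seen. Of the 10 members, 8 had a promoter entry, and an RBPJ core was found in those of Rbpj. No match says only that these letters are not in this window.

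Jag2, the gene of the second Jagged ligand, was far lower than Jag1. It read 92.9, 119, 112 and 75.2 in control with vehicle and 82.4, 121, 95.9 and 46.2 with E2/MPA. In cKO it read 93.1, 127, 105 and 64.4 with vehicle and 66.6, 123, 142 and 72.0 with E2/MPA. The groups overlapped throughout, and the hormone effect was -0.26 (SE 0.31, adjusted p = 0.662) in control and 0.02 (SE 0.31, adjusted p = 0.986) in cKO. Its lowest value was in M4, M8 and M12 within their groups, the libraries richest in stromal markers there. Dll1, a Delta ligand gene, rested on 47, 29, 27 and 37 reads in control vehicle, control E2/MPA, cKO vehicle and cKO E2/MPA. Its hormone effects of -0.54 (SE 0.70, 95% interval -2.03 to 0.95) and 0.30 (SE 0.70, 95% interval -1.19 to 1.79) were not resolved at this depth.

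Among the receptors, Notch2 was the most abundant and was lower under the hormones in both genotypes, without passing the test. Control libraries read 1643, 1185, 1146 and 1786 with vehicle and 966, 1052, 983 and 1225 with E2/MPA, with an overlap between M12 and the vehicle libraries M2 and M3. The log2 fold change was -0.43 (SE 0.15, adjusted p = 0.0983). In cKO, values of 1263, 1253, 1195 and 1701 with vehicle lay above 882, 1034, 961 and 1166 with E2/MPA, with a log2 fold change of -0.41 (SE 0.15, adjusted p = 0.150). Within each of the 4 groups the highest Notch2 value belonged to the library with the highest stromal marker level (M4, M8, M12 and M16), and the part of stromal RNA in these values was not tested. With the stromal marker mean as a covariate Notch2 passed in control (-0.43, adjusted p = 0.00303) and in cKO (-0.46, adjusted p = 0.00293). DESeq2 called it in control (adjusted p = 0.0488) and not in cKO (0.0906). A random block of libraries 8 numbers apart called it in control (0.00796) and in cKO (0.0136). Over all genes the covariate called 3671 in control and 2748 in cKO, and the block 4479 and 3098, against 1469 and 692. Array weights called Notch2 in cKO (adjusted p = 0.0485) and not in control (0.0840). Without the 4 libraries highest in stromal markers, Notch2 passed in neither (adjusted p = 0.0538 in control and 0.0995 in cKO). With the 6 libraries left out it was -0.20 (adjusted p = 0.173) in control and -0.37 (adjusted p = 0.00603) in cKO.

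Notch1 and Notch3, which encode the other receptors of the group, were at similar levels in all 4 groups. Notch1 averaged 595 ± 135 and 659 ± 49.9 in control (vehicle and E2/MPA) and 602 ± 101 and 725 ± 122 in cKO. Its hormone effect was 0.17 (SE 0.16, adjusted p = 0.570) in control and 0.27 (SE 0.16, adjusted p = 0.420) in cKO. Notch3, a receptor also known from pericytes and vascular smooth muscle, averaged 409 ± 85.1 and 449 ± 83.0 in control and 501 ± 88.6 and 522 ± 40.8 in cKO. Its hormone effect was 0.14 (SE 0.16, adjusted p = 0.649) and 0.07 (SE 0.16, adjusted p = 0.862). For genotype, Notch3 was higher in cKO by 0.30 under vehicle (SE 0.16, adjusted p = 0.840) and by 0.23 under E2/MPA (SE 0.16, adjusted p = 0.661), and its libraries overlapped in both.

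Rbpj, the gene of the factor that carries the Notch signal to DNA, stood at nearly the same level in the 4 groups. Its group means ran from 647 to 675, and its hormone effect was -0.0020 in control (SE 0.09, 95% interval -0.20 to 0.20, adjusted p = 0.992) and -0.05 in cKO (SE 0.09, 95% interval -0.25 to 0.16, adjusted p = 0.855). Both intervals leave out the size of the Jag1 change. In the control groups 1 library stood above the rest: M4 at 778 against 634 to 648, and M12 at 797 against 617 to 643.

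**Figure D2:**
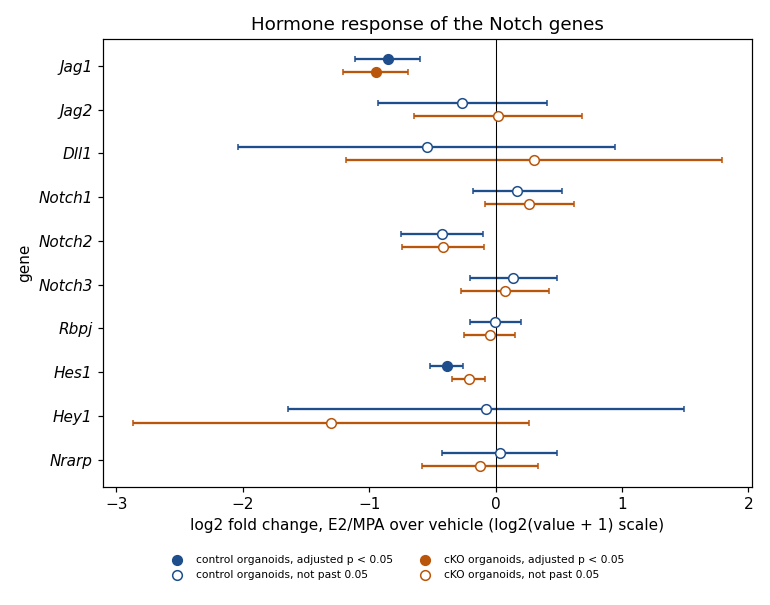
Log2 fold change of E2/MPA over vehicle (x axis) for each Notch gene (y axis) in control and cKO organoids, with 95% intervals from limma; filled points passed an adjusted p of 0.05. Jag1 passed in both genotypes and Hes1 in control, and the intervals of Dll1 and Hey1 are the widest.

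Of the targets, Hes1 encodes a repressor that Notch activates in many tissues and that other pathways also control. In control it read 1385, 1390, 1476 and 1355 with vehicle and 1108, 1029, 1117 and 1032 with E2/MPA. The groups did not overlap, and Hes1 fell by 0.39 on the log2 scale (SE 0.06, limma adjusted p = 0.00157), a mean 23.5% lower. It was called in control under all 31 alternatives. In cKO it read 1508, 1514, 1407 and 1583 with vehicle and 1396, 1283, 1177 and 1337 with E2/MPA. There the groups did not overlap either, but the log2 fold change of -0.21 (SE 0.06, adjusted p = 0.0704) did not pass. DESeq2 (adjusted p = 0.0135), upper-quartile scaling (0.0476), array weights (0.0342), the stromal covariate (0.0278) and the random block (0.00349) each called it. The difference between the genotypes in the hormone response was 0.17 (SE 0.09, 95% interval -0.01 to 0.36, unadjusted p = 0.0653, adjusted p = 1.00).

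Under E2/MPA every cKO library was above every control library for Hes1, as for 3.82% of all genes tested. This genotype difference was 0.27 (SE 0.06, adjusted p = 0.174), and it ranked 47 of 16509 genes by p-value in a comparison where limma called 1 gene in all (0.00606%). It passed with DESeq2 (adjusted p = 0.00826), array weights (0.0362) and the stromal covariate (0.0353), settings that called 185, 597 and 395 genes in all. Under vehicle the difference was 0.10 (SE 0.06, adjusted p = 0.861) and the libraries overlapped. So under E2/MPA the cKO mean was lower than control for the ligand gene Jag1 and higher for the target gene Hes1, neither passing limma's test.

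Over all members, limma called 0 of 10 for genotype under vehicle, where 0% of all genes tested were called and 2 members were under an unadjusted p of 0.05 (5.96% of all genes). There no member had cKO libraries all above (1.64% of all genes) or all below (1.37%) those of control. Under E2/MPA it called 0 of 10, with 3 members under an unadjusted p of 0.05, where 10.9% of all genes were. Every cKO library there lay above every control library for Hes1 and Nrarp (3.82% of all genes) and below for Jag1 (2.35%). For the interaction limma called 0 of 10, with 0 members under an unadjusted p of 0.05. In that comparison 0% of all genes were called and 1.87% were under that p. edgeR's quasi-likelihood test called 0 members in these 3 comparisons, and DESeq2 called 0, 1 (Hes1) and 0.

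Closest to Hes1 over the 16 libraries were Pim1 (Pearson r 0.913), a kinase gene, Fam124a (0.910), and Dhx37 (0.904), an RNA helicase gene. Pim1 means went from 6937 to 4314 in control and from 8122 to 5980 in cKO, the same order of the 4 groups as Hes1. The likeness is a description over shared libraries.

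Hey1, a HEY family repressor gene, was low and uneven. Control libraries read 32.3, 16.9, 22.1 and 153 with vehicle and 14.9, 55.0, 70.0 and 26.4 with E2/MPA. In cKO it read 20.2, 12.6, 14.7 and 98.7 with vehicle and 5.95, 10.6, 6.84 and 18.3 with E2/MPA. M4 and M8, the vehicle libraries richest in stromal markers, were far above the rest of their groups. M10 and M11, both low in stromal markers, were the highest in control with E2/MPA. In cKO with E2/MPA the highest was M16 (18.3, next 10.6), the library richest in stromal markers there. The part of stromal RNA in these values was not tested. The hormone effect was -0.07 in control (SE 0.73, adjusted p = 0.967) and -1.30 in cKO (SE 0.73, adjusted p = 0.372). Hey1 was lower in cKO than in control by -1.79 under E2/MPA (SE 0.73, adjusted p = 0.390) and by -0.56 under vehicle (SE 0.73, adjusted p = 0.947).

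The Hey1 result depended on which libraries entered. Without the 6 libraries high in stromal markers, the effect in control turned to a rise of 1.63 (adjusted p = 0.0168), from 16.9 and 22.1 in M2 and M3 to 55.0 and 70.0 in M10 and M11. The genotype difference under E2/MPA was then -2.88 (adjusted p = 0.00158), and the interaction was -2.58 (adjusted p = 0.0977). Array weights, a planned setting with all libraries, also called this genotype difference, where it called 597 genes in all. Without M4 alone the control effect was 0.60, without M9 alone 0.32 and without M12 alone 0.06. These comparisons rest on 40 to 266 reads per group of 4 libraries.

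Nrarp, a target whose product destabilizes the Notch intracellular domain, was low and did not respond to the hormones beyond its spread. Control libraries read 60.6, 29.3, 37.6 and 50.4 with vehicle and 45.8, 47.0, 47.5 and 36.3 with E2/MPA. The cKO libraries read 77.4, 59.6, 51.9 and 56.9 with vehicle and 67.8, 48.4, 52.4 and 55.9 with E2/MPA. The hormone effect was 0.03 (SE 0.21, adjusted p = 0.949) in control and -0.12 (SE 0.21, adjusted p = 0.820) in cKO. Nrarp was higher in cKO by 0.49 under vehicle (SE 0.21, unadjusted p = 0.0358, adjusted p = 0.824), with overlap. Under E2/MPA it was higher by 0.34 (SE 0.21, adjusted p = 0.607), and the libraries did not overlap, as for 3.82% of all genes tested.

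**Figure D3:**
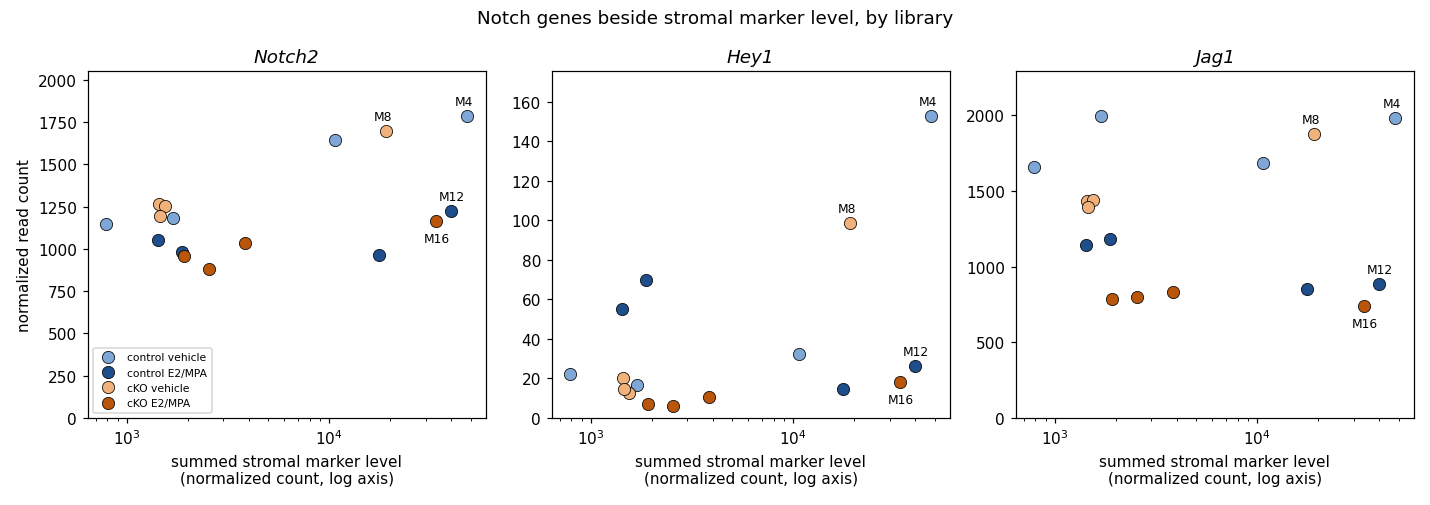
Normalized read count of Notch2, Hey1 and Jag1 (y axes) against the summed normalized count of 10 stromal fibroblast markers (x axes, log scale), 1 point per library, with M4, M8, M12 and M16 named. Notch2 is highest in the named library of each group, and Jag1 under E2/MPA lies below Jag1 under vehicle at low and at high stromal levels.

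A list of 65 other pathway genes was set against the members. Of these, 59 were in the table and 55 were tested. Dlk2, Mfng, Dtx1 and Hey2 were too low to test, and Dll3, Dlk1, Hes2, Hes3, Hes5 and Helt were not among the table's genes. In control 10 of 55 were called, 5 higher and 5 lower (18.2%, against 8.90% of all genes). In cKO 6 of 55 were called, 3 higher and 3 lower (10.9%, against 4.19%). The median log2 fold change of the 55 was -0.0094 in control and -0.05 in cKO, so the list did not move one way. The list had been made with earlier results of these data known. Kyat1, which encodes a kynurenine aminotransferase and is not a Notch regulator, entered the corepressor group of the list in error. It was called higher in control (1.88, SE 0.52, adjusted p = 0.0343), and without it the counts are 9 of 54 in control and 6 of 54 in cKO. No listed gene was called by limma for genotype under vehicle, for genotype under E2/MPA or for the interaction. Listed genes under an unadjusted p of 0.05 numbered 3, 4 and 1 in that order, against 5.96%, 10.9% and 1.87% of all genes tested. edgeR called 0 in all 3, and DESeq2 called 2 for genotype under E2/MPA, where it called 185 of 16509 genes in all.

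In control organoids the largest change in the list was in Rfng, which encodes radical fringe, a glycosyltransferase that extends sugars on Notch receptors. Control libraries read 210, 227, 193 and 302 with vehicle and 817, 1086, 929 and 828 with E2/MPA, a mean 3.93 times as high. Its log2 fold change was 1.98 (SE 0.16, limma adjusted p = 7.2e-06). In cKO it read 199, 238, 181 and 245 with vehicle and 496, 677, 430 and 523 with E2/MPA, a mean 2.47 times as high (log2 fold change 1.29, SE 0.16, adjusted p = 4.1e-04). The treatments did not overlap in either genotype, and Rfng was called in both under all 31 alternatives. Under E2/MPA every cKO library lay below every control library, as for 2.35% of all genes tested. The difference was -0.79 (SE 0.16, adjusted p = 0.154). That difference passed with DESeq2 (adjusted p = 0.00292), array weights (0.0154), the stromal covariate (0.0247) and without the 6 libraries (0.0113). The interaction was -0.69 (SE 0.23, unadjusted p = 0.00858, adjusted p = 1.00). The related fringe gene Lfng was low, at group means of 9.09 to 41.1, and was highest in the stroma-rich library of each group.

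The Rfng promoter was chosen after its values were seen, as the listed gene with the largest rise in control. It lies at chr11:120784208-120784454 (minus strand, RefSeq, GRCm38.p6), upstream of every annotated Rfng exon, shown 5′ to 3′ and without capitals, because none of the 4 motifs was found:
Rfng: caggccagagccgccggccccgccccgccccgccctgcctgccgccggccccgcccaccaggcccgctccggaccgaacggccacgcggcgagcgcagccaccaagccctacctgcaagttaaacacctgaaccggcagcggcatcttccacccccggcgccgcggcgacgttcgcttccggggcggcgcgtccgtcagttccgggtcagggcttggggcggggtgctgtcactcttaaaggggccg
Its GC content was 75.3%, against 75.6% for the full window of 250 bases. Any part of promoter sequence in the Jag1 and Rfng responses was not tested.

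Further receptor glycosylation genes changed less. Poglut1, which adds glucose to Notch repeats, was lower in control (-0.28, SE 0.08, adjusted p = 0.0473) and in cKO (-0.36, SE 0.08, adjusted p = 0.0242). Pofut1, which adds the fucose that fringe enzymes extend, did not pass in control (-0.20, SE 0.07, adjusted p = 0.105) or in cKO (-0.05, SE 0.07, adjusted p = 0.775).

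Among other receptors and ligands, Dll4, a Delta ligand gene best known from endothelium, was lower under hormone in both genotypes. Control libraries read 775, 569, 678 and 770 with vehicle and 428, 458, 459 and 508 with E2/MPA (log2 fold change -0.58, SE 0.14, adjusted p = 0.0173). In cKO they read 798, 778, 714 and 923 with vehicle and 512, 648, 408 and 623 with E2/MPA (-0.57, SE 0.14, adjusted p = 0.0325). The treatments did not overlap. The 7 endothelial markers in the table summed to 155 to 657 in the vehicle groups and 140 to 347 in the E2/MPA groups, and their part in the Dll4 values was not tested. Dll4 lost its call in control without the 6 libraries (-0.44, adjusted p = 0.130). Notch4, a receptor gene also best known from endothelium, did not pass (-0.70, SE 0.40, adjusted p = 0.310 in control, and -0.40, SE 0.40, adjusted p = 0.662 in cKO). It was highest in the stroma-rich library of each group, at 1160 in M4.

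Of the 9 cleavage genes, Furin, whose convertase cuts the receptor precursor, was lower in control (-0.51, SE 0.12, adjusted p = 0.0194). It did not pass in cKO (-0.30, SE 0.12, adjusted p = 0.207). Ncstn, a gamma-secretase subunit gene, missed the threshold in control (-0.24, SE 0.07, adjusted p = 0.0544). None of the 5 ligand endocytosis genes passed, among them the ubiquitin ligase genes Mib1 (0.03 in control, -0.0068 in cKO) and Mib2 (-0.20 and -0.19).

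Of the 10 tested receptor turnover genes, Numb, whose product is an endocytic antagonist of Notch, rose in both genotypes. Control libraries read 961, 1340, 1017 and 904 with vehicle and 1698, 2244, 2063 and 1221 with E2/MPA. M12, rich in stromal and immune markers, was the E2/MPA library that overlapped the vehicle group. The log2 fold change was 0.75 (SE 0.17, adjusted p = 0.0130). In cKO, 890, 957, 850 and 872 with vehicle lay below 1787, 1650, 1590 and 1250 with E2/MPA (0.80, SE 0.17, adjusted p = 0.0152). Aak1, an adaptor kinase gene of endocytosis, was higher in control (0.25, SE 0.07, adjusted p = 0.0404) and did not pass in cKO (0.21, SE 0.07, adjusted p = 0.107). The ubiquitin ligase genes Nedd4 and Itch, the most abundant of this role, did not pass in either genotype (adjusted p from 0.483 to 0.943).

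Among 8 nuclear coactivators, Maml2, a Mastermind gene, fell in both genotypes. It read 767, 630, 634 and 759 against 396, 382, 469 and 472 in control (vehicle and E2/MPA; -0.70, SE 0.12, adjusted p = 0.00261). In cKO it read 591, 620, 600 and 793 against 340, 421, 438 and 449 (-0.66, SE 0.12, adjusted p = 0.00677). No library of one treatment reached the other, and the call held in both genotypes under all 31 alternatives. Kat2a, an acetyltransferase gene, was lower in control (-0.34, SE 0.08, adjusted p = 0.0153) and just missed in cKO (-0.29, SE 0.08, adjusted p = 0.0509). Snw1, whose product binds the RBPJ complex and the spliceosome, was higher in control (0.32, SE 0.07, adjusted p = 0.0143) and did not pass in cKO (0.26, SE 0.07, adjusted p = 0.0592). Ep300 and Kat2b, the most abundant coactivator genes, did not pass in either.

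Of 14 genes in the corepressor group, none besides Kyat1 passed, including Spen (0.13 in control, SE 0.10, adjusted p = 0.490). The 3 tested further HES and HEY genes did not pass either. Hes6 was steady at group means of 458 to 487, and Heyl, at group means of 8.81 to 42.6, was highest in the stroma-rich library of each group.

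**Figure D4:**
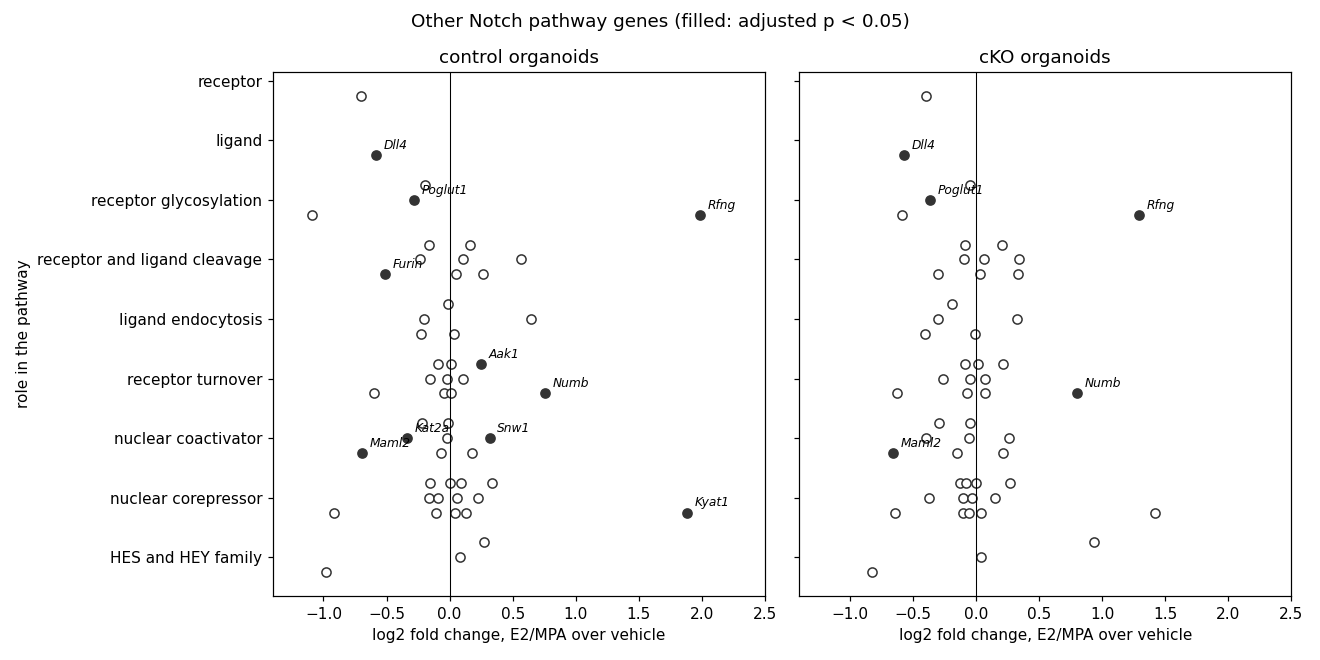
Log2 fold change of E2/MPA over vehicle (x axes) of the other listed genes by their role in the pathway (y axis), in control and cKO organoids; filled and named points passed an adjusted p of 0.05, and Kyat1 is on the list in error. Rfng is the farthest to the right in control, and Dll4, Poglut1 and Maml2 are lower in both genotypes.

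Several single-gene calls in the list rested on few libraries. In control, the Dll4 call was lost without M1, M10 or M11, the Numb call without M10 or M11, and the Furin call without M1, M4 or M10. Kat2a lost its call without M10 or M11, and Snw1 without M11. The calls of Poglut1 and Aak1 in control were each lost in at least 9 of 16 omissions of 1 library. In cKO the Dll4 call was lost without M5, M6, M8, M13 or M15, the Numb call without M13 or M14, and the Poglut1 call without M5, M7, M14 or M15. The count in control went from 10 to 5 without M1, 6 without M4, 3 without M10, 3 without M11 and 16 without M12. Over all genes the calls in control moved the same way, from 1469 to 803, 1169, 759, 781 and 2230. In cKO the count went from 6 to 3 without M5, M13 or M15, where calls over all genes went from 692 to 400, 362 and 419.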

How the data were processed

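RNA was measured by sequencing in 16 organoid libraries, grouped by the labels' genotype and treatment. Per the submitters' processing notes, HISAT2, featureCounts and DESeq2 were used with build GRCm39; tool versions and strand setting are not given in the sources used here. Values in the deposited table are a signal: each library's gene reads over its own size factor, per the labels and the values themselves. Dividing by each library's smallest positive value gave whole reads within 0.01 for 100% of values in every library. Libraries of a group differed from each other by more than counting error (chi-square over degrees of freedom at least 6.96). Gene symbols came from GENCODE M21 for 22484 genes, and the 822 others held 1.83% of reads. Exon lengths came from the same annotation.

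Tests used log2(value + 1) and the 16509 genes that reached 10 in 4 or more libraries, leaving out 6797. limma 3.58.1 in R 4.3.3, with a mean-variance trend and a mean per group over all 16 libraries, tested hormone in each genotype, genotype under each treatment and the interaction, with Benjamini-Hochberg adjustment over all genes at 0.05. edgeR 4.0.16 (quasi-likelihood) and DESeq2 1.42.0 were run on the recovered reads as alternatives. The fit was tested on simulated data. There were 15 further settings besides leaving out each library; the one without 6 libraries, whose stromal markers summed to over 10000, was added after seeing the data.

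The members and lists were chosen with earlier results of these data known. Text names all members, Tgfbr2, every listed pathway gene called in a comparison, the 2 most abundant genes of each role and marker list, and the 3 genes closest to each called member among those with a mean of at least 50; Lfng was added after its values were seen. Hes1 and Hey1 promoters are not shown. For 2 listed pathway genes the single results are not reported here, and they are not plotted.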

Additional observations from a re-analysis of the deposited data

Results flagged for a closer look

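Of 40 sets of 4 libraries (10 genes in 4 groups), 7 held a library set apart from the other 3 by Dixon's criterion, where chance gives about 1 in 20. In cKO with vehicle, M8 was apart for Jag1 (1879, next 1441), Notch2 (1701, next 1263) and Hey1 (98.7, next 20.2). In control with vehicle, M4 was apart for Hey1 (153, next 32.3) and Rbpj (778, next 648). In control with E2/MPA, M12 was apart for Rbpj (797, next 643) and for Nrarp, where it was the lowest (36.3, next 45.8). All 7 fell on M4, M8 or M12, which had more stromal marker reads than any other library of their group. M4 and M12 also had the highest immune marker sums (15353 and 20601), against 1949 in M8. The part of stromal or immune RNA in these values was not tested.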

How the results depend on the processing

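The libraries are few and M1, M4, M8, M9, M12 and M16 carry more stromal RNA than the rest, genes under about 100 normalized reads (Dll1, Hey1, Nrarp, Jag2) have wide intervals, and the number of genes called overall is small for genotype, which limits what adjustment over all genes can call. The labels give libraries of different groups no shared numbers and so pair none; libraries 8 numbers apart, paired by a hint from the data and not by the design, were tried as a random block (consensus correlation 0.496). The falls of Jag1 in both genotypes and of Hes1 in control kept direction and call in all 31 alternatives. Where values below changed, the cause was not tested.

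The number of other listed pathway genes called in control was 10; it was 16 with array weights, 19 with the stromal covariate, 21 with the random block and 3 with the 2 compared groups alone in the fit (3 to 16 on leaving out 1 library). Over all 16509 genes the calls were 1469, and 2549, 3671, 4479 and 484 under these settings in that order, so the list's count moved with the whole table. In cKO the listed genes called numbered 6; the number was 14 with array weights, 13 with the covariate, 18 with the block and 14 without the 6 libraries (3 to 8 on leaving out 1 library), where calls over all genes were 692, and 1678, 2748, 3098 and 2288. The number of Notch members called in cKO was 1. It was 2 with upper-quartile scaling, DESeq2 and without the 6 libraries, and 3 with array weights, the covariate and the block. Over all genes in cKO, upper-quartile scaling called 683 of 16537 and DESeq2 called 1255 of 16509, against 692. For genotype under vehicle, 1 member and 2 listed genes were called without the 6 libraries, against 0 and 0, and 593 genes in all. For genotype under E2/MPA, members called numbered 1 with DESeq2, 3 with array weights, 1 with the covariate and 2 without the 6 libraries, and listed genes 2, 2, 2 and 3, where calls over all genes were 185, 597, 395 and 1394.

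Directions turned for members near 0 or with few reads. For the hormone effect in control, Hey1 was 0.78 with array weights, 0.73 without the 4 libraries highest in stromal markers and 1.63 without the 6 libraries (called), Rbpj was 0.0019 with DESeq2, and Nrarp was -0.010 with DESeq2 and -0.014 with edgeR. For the hormone effect in cKO, Jag2 was -0.027 and Dll1 -0.25 without the 4 and without the 6 libraries alike. For genotype under vehicle, Rbpj was 0.017 with array weights, 0.015 with the covariate, 0.045 without the 4 and 0.043 without the 6 libraries, Jag2 was 0.0025 without the 4, and Notch2 was 0.085 without the 6. For genotype under E2/MPA, Dll1 was -0.37 with array weights, -0.54 without the 4 and -0.98 without the 6, Rbpj 0.010, 0.022 and 0.033 in that order, and Jag2 -0.031 without the 6. For the interaction, Notch2 was -0.044 with array weights, -0.025 with the covariate and -0.17 without the 6 libraries, where Notch1 was -0.023 and Dll1 -0.017.

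On leaving out 1 library at a time, these spans crossed 0. For the hormone effect in control they were -0.45 to 0.0055 for Jag2, -0.085 to 0.068 for Rbpj, -0.44 to 0.60 for Hey1 and -0.15 to 0.20 for Nrarp. In cKO they were -0.050 to 0.15 for Notch3, -0.17 to 0.19 for Jag2, -0.21 to 1.00 for Dll1 and -0.092 to 0.0030 for Rbpj. For genotype under vehicle they were -0.11 to 0.14 for Notch1, -0.19 to 0.035 for Notch2, -0.19 to 0.13 for Jag2, -0.059 to 0.060 for Rbpj, -1.21 to 0.11 for Hey1 and -0.18 to 0.029 for Rfng. Under E2/MPA they were -0.14 to 0.0081 for Notch2, -0.039 to 0.42 for Jag2, -0.39 to 0.83 for Dll1 and -0.095 to 0.028 for Rbpj. For the interaction they were -0.017 to 0.23 for Notch1, -0.10 to 0.13 for Notch2, -0.19 to 0.054 for Notch3, -0.17 to 0.0061 for Jag1, -0.11 to 0.039 for Rbpj and -0.32 to 0.021 for Nrarp.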
